A study of Mus musculus with 12 samples.

Results

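The collagen, laminin and integrin genes of the mouse liver were examined in 3 cell populations. They were taken by symbol, as the protein-coding genes whose GENCODE name begins with Col, Lam or Itg followed by the number and letter of a collagen chain, a laminin chain or an integrin subunit. The symbol rule gave 83 of the 53715 genes in the count table, of which 44 are collagen chains, 11 laminin chains and 27 integrin subunits. The remaining match, Col4a3bp, encodes a ceramide transfer protein and is no collagen. Of these 83 genes, 75 had more than 10 counts in at least 1 library and were tested. The other 8 (Col6a4, Col6a5, Col9a1, Col10a1, Col19a1, Col22a1, Col28a1 and Itgad) had at most 9 counts in any library. A gene that passed this minimum through 1 group is one that was high there, so counts over tested genes describe them and say nothing about the 8 others.

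RNA came from 4 biological replicates of each population of C57BL/6JOlaHsd mice. Hepatoblasts, the fetal progenitors of hepatocytes and bile duct cells, were selected from livers of E14.5 embryos by the surface protein Dlk1 on magnetic beads and lysed at once. Several embryonic livers were pooled for each isolation. The Diff. hepatocytes were such hepatoblasts after 4 days in culture, on plates coated with fibronectin and in a medium with serum, dexamethasone and Matrigel, an extract of mouse basement membrane. Mature hepatocytes were isolated with collagenase from livers of male mice 8 to 12 weeks old and lysed directly. The cells therefore differed in age, in culture and in how they were isolated, and the cultured cells lay on and under matrix proteins supplied from outside. The study's methods give no sex for the embryos, so a difference in sex from the male adults cannot be told apart from age. Such preparations can hold other cell types, and in bulk RNA fewer cells of a type and less RNA per cell cannot be told apart.

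Collagens are trimers of chains. Fibrillar collagens (types I, II, III, V, XI, XXIV and XXVII) form the fibers of connective tissue, and type IV collagens form the network of basement membranes. Laminins, trimers of an alpha, a beta and a gamma chain, polymerize at the cell surface and are the other scaffold of that sheet. Integrins, dimers of an alpha and a beta subunit, hold cells to these proteins and carry signals from them. In the adult liver hepatocytes face the sinusoid without a typical basement membrane, while bile ducts and vessels have one, and stellate cells are known as the main source of fibrillar collagen in fibrosis.

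Levels are given as CPM, counts scaled to a common library size by the trimmed mean of M values (TMM), as mean ± SD of the 4 libraries of a group. Library totals lay between 19581551 and 25216977 counts. These genes together took 0.401 to 0.522% of the counts in hepatoblasts, a share that was 0.480 to 0.8289% in Diff. hepatocytes and 0.165 to 0.207% in mature hepatocytes. Labels were checked against marker genes: 10 hepatocyte markers summed to 34942 to 59301 CPM in hepatoblasts, 72174 to 87281 in the Diff. hepatocytes and 127476 to 173698 in the mature ones, and 6 hepatoblast markers to 41785 to 70001, 37803 to 44115 and 65.9 to 109 CPM. A pair of libraries stood apart. Hepatoblasts replicate 1 had summed levels of 2079 CPM for 9 erythroid, 327 for 12 macrophage and myeloid and 466 for 8 granulocyte markers, while the other 3 hepatoblast libraries reached at most 419, 90.9 and 52.5 CPM. Diff. hepatocytes replicate 1 had 294 CPM of 9 bile duct markers and 939 CPM of 14 stellate and mesenchymal markers, while the others of its group reached at most 152 and 673 CPM. The 14 stellate and mesenchymal markers summed to 789 to 1215 CPM in hepatoblasts, 505 to 939 in the Diff. hepatocytes and 73.8 to 109 in the mature ones. Most of the hepatoblast sum was Reln, at 864 ± 184 CPM there and 92.9 ± 22.5 in Diff. hepatocytes. Without Reln the ranges were 180.5 to 243 CPM in hepatoblasts, 398 to 876 in the Diff. hepatocytes and 58.2 to 83.2 in the mature ones. Such sums follow the most abundant markers. The mean log2 CPM of all 14 overlapped between hepatoblasts (2.74 to 3.42) and Diff. hepatocytes (2.93 to 3.28), and was 1.14 to 1.69 in mature hepatocytes. None of the 14 markers was at 0 throughout a group.

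**Figure D1:**
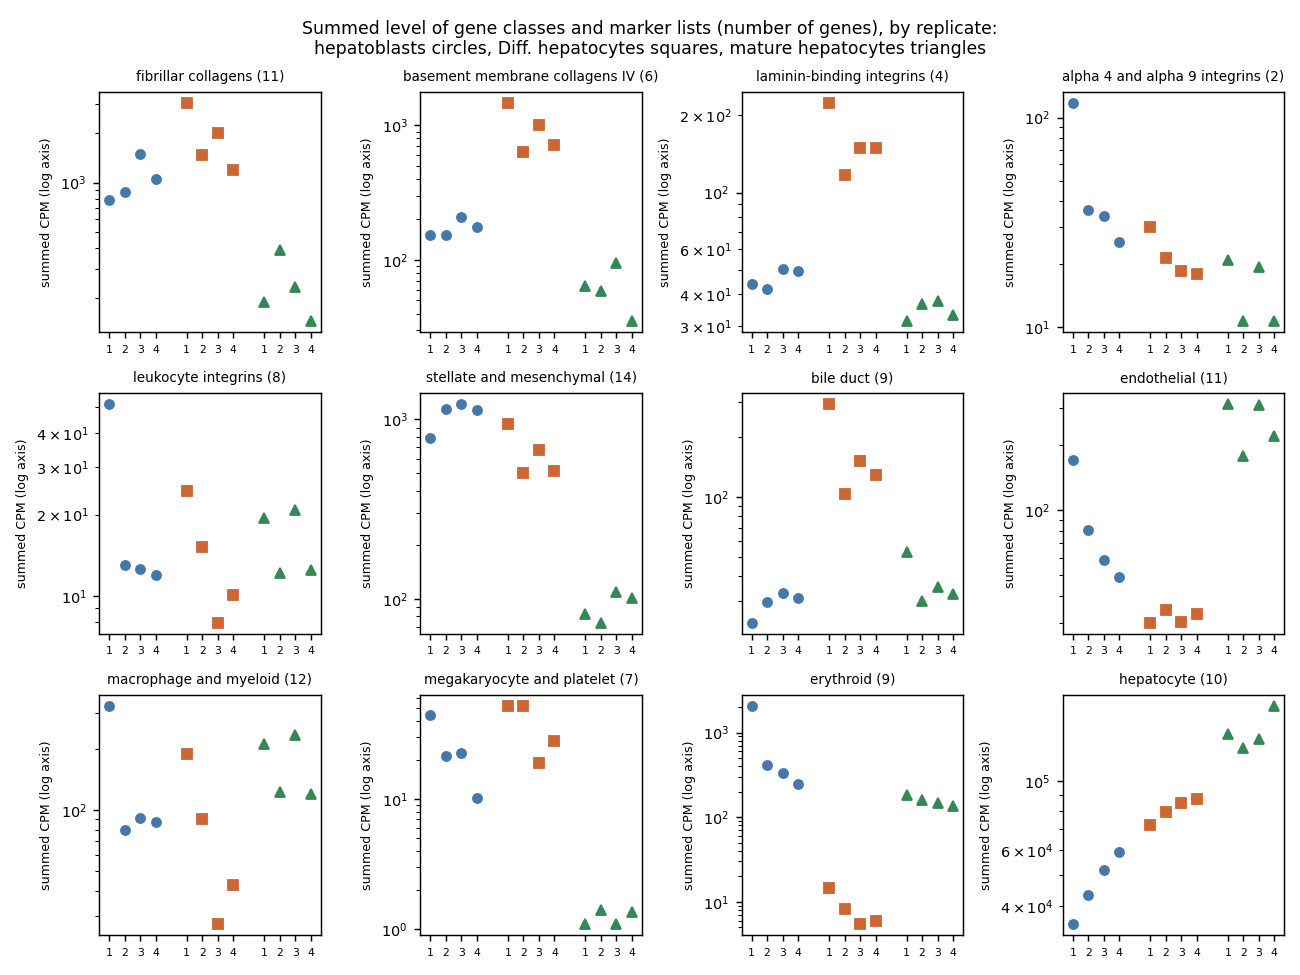
Summed CPM (log axis) of 5 gene classes and 7 marker lists in each library, with the replicate number on the x axis and the number of genes in brackets. Hepatoblasts replicate 1 is the highest of its group in the alpha 4 and alpha 9 integrins, the leukocyte integrins and the erythroid, macrophage and endothelial lists. Diff. hepatocytes replicate 1 is the highest of its group in the fibrillar and type IV collagens and the bile duct, stellate and macrophage lists.

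Between Diff. hepatocytes and hepatoblasts, 24 of the 75 tested genes were called higher and 11 lower, by edgeR's quasi-likelihood test at an adjusted p under 0.01 and a log2 fold change over 1 in size. Of all 17779 genes tested, 14.9% were called higher and 14.0% lower (28.9% in all). The median log2 fold change was 0.60 for the 75 genes and -0.01 for all genes. Between mature hepatocytes and hepatoblasts 7 were called higher and 40 lower, where 20.1% of all genes were called higher and 24.7% lower (44.8% in all), with medians of -1.78 and -0.15. Between Diff. and mature hepatocytes 43 were called higher in Diff. hepatocytes and 9 lower, where 20.2% and 15.6% of all genes were (35.8% in all), with medians of 2.08 and 0.09. The 3 comparisons share their libraries. These shares of all genes also stand beside the counts of gene classes given below. Of the tested genes, 10 were called higher in Diff. and lower in mature hepatocytes than in hepatoblasts, 23 were called lower in mature hepatocytes and not called in Diff. hepatocytes, 7 were called lower in both, 4 higher in both, and 13 were called in none of the 3 comparisons. How many of all genes fall into each of these patterns was not counted, so the patterns are not shown to be particular to these genes. The scaling bears on all counts of called genes. The shares of all genes above hold for TMM scaling and are not given for library totals. The counts with library totals therefore cannot be set against those shares. With library totals in place of TMM the fold changes of all genes shifted by a median of -0.32, -0.85 and 0.53 in the 3 comparisons, and the calls became 15 higher and 14 lower in Diff. hepatocytes, 4 higher and 50 lower in mature hepatocytes, and 49 higher and 6 lower between Diff. and mature hepatocytes.

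**Figure D2:**
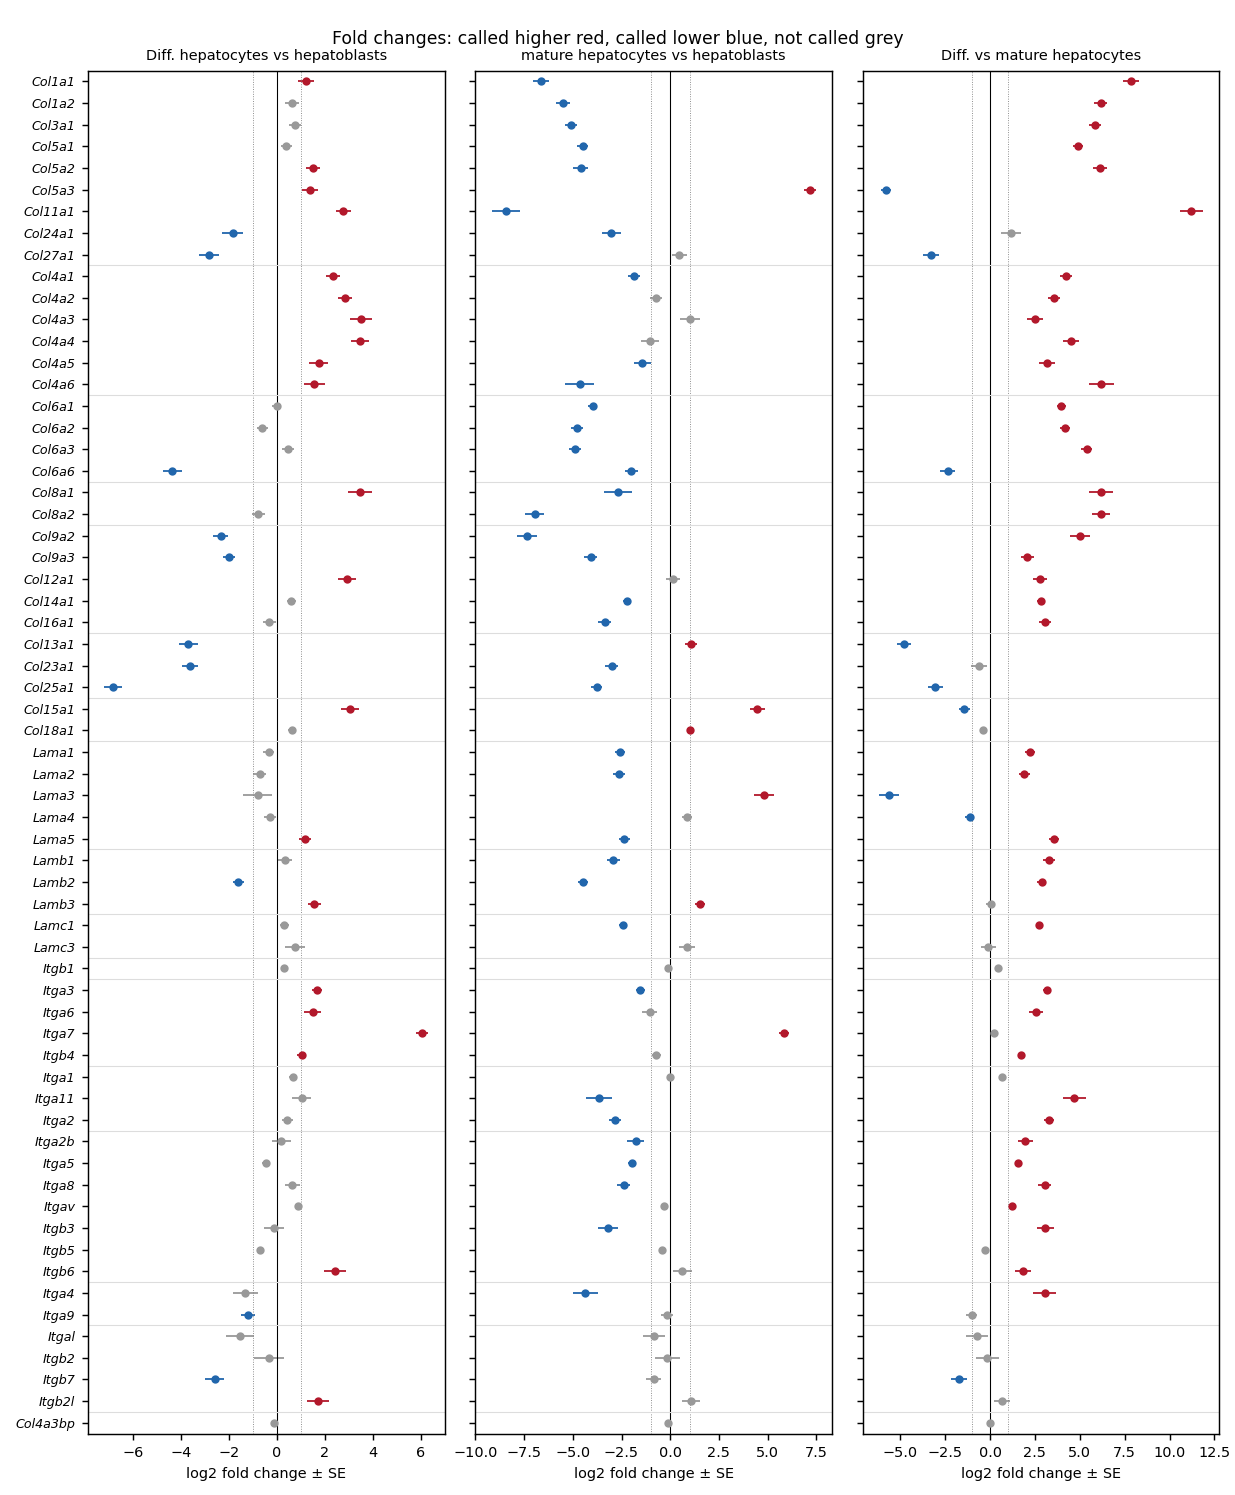
Log2 fold changes with SE of 63 genes in the 3 comparisons, in red where called higher, in blue where called lower and in grey where not called; dotted lines mark a log2 fold change of 1 either way. The 6 type IV collagens lie to the right in Diff. hepatocytes, and most fibrillar collagens and laminin chains lie to the left in mature hepatocytes, with Col5a3, Lama3 and Itga7 far to the right.

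The type IV collagens were higher in Diff. hepatocytes than in hepatoblasts for each of the 6 chains, and the groups did not overlap for any of them. Of all genes 57.5% did not overlap in this comparison either. Col4a1 and Col4a2, the chains of the type IV collagen found in nearly every basement membrane, took most of the counts of the 6. Col4a1 (ENSMUSG00000031502, chromosome 8 from 11198423 to 11312826 of GRCm38) had 102, 104, 145 and 119 CPM in hepatoblasts, 909, 389, 627 and 466 in Diff. hepatocytes and 36.5, 26.9, 48.2 and 17.3 in mature hepatocytes. Col4a2 had 42.3, 39.9, 51.7 and 46.8 CPM, 504, 218, 333 and 233 CPM and 24.8, 28.9, 39.8 and 15.1 CPM, in the same order of groups. For both genes the 4 Diff. libraries were the highest, replicate 1 above the rest, and the mature libraries were the lowest. Mature libraries lay apart from hepatoblasts for 66.0% of all genes, and from Diff. hepatocytes for 61.6%. In Diff. hepatocytes the log2 fold change was 2.35 ± 0.31, adjusted p = 2.21e-05, for Col4a1 and 2.83 ± 0.30, adjusted p = 3.17e-06, for Col4a2. In mature hepatocytes Col4a1 was lower than in hepatoblasts (-1.87 ± 0.31, adjusted p = 9.85e-05), and the lower value of Col4a2 was not called (-0.73 ± 0.29, adjusted p = 0.0348).

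The other 4 chains build the type IV collagens of specialized basement membranes, such as those of the kidney. They took fewer counts and rose in Diff. hepatocytes too. Col4a3 went from 0.244 ± 0.144 to 2.81 ± 0.940 CPM (3.51 ± 0.45, adjusted p = 1.86e-05) and Col4a4 from 0.492 ± 0.182 to 5.45 ± 1.94 CPM (3.46 ± 0.37, adjusted p = 3.76e-06). Of the 75-base sequences of Col4a3, 4.155% are shared with C430014B12Rik, which overlaps it on the other strand. Col4a5, with 8.03 ± 1.61, 26.9 ± 14.6 and 2.95 ± 1.85 CPM in hepatoblasts, Diff. and mature hepatocytes, rose by 1.75 ± 0.38, adjusted p = 0.00157, in culture and was lower in mature hepatocytes (-1.43 ± 0.42, adjusted p = 0.00739). The lower level of Col4a5 in mature hepatocytes lost its call in 7 of the 12 fits that left out 1 library. Col4a6 went from 1.31 ± 0.238 to 3.87 ± 2.45 CPM (1.56 ± 0.43, adjusted p = 0.00722). Its 3 counts in all 4 mature libraries gave a ratio of hepatoblasts to mature hepatocytes of 27.6, with an exact 95% interval for counting error of 9.28 to 135. Between Diff. and mature hepatocytes the 6 chains were called higher in Diff. hepatocytes, with a median log2 fold change of 3.89.

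Diff. hepatocytes replicate 1 carried the highest sum of the 6 chains, 1477 CPM against 634 to 1003 CPM in the other 3. It was also the library of its group with the most bile duct, mesenchymal, macrophage and granulocyte marker RNA. The part of those cells in the result was not tested. Without this library 5 of the 6 chains were called, with a median log2 fold change of 2.30 in place of 2.59, and Col4a6 was not (1.09, adjusted p = 0.0308). With library totals 5 of 6 were called, and Col4a6 was again the exception (1.24, adjusted p = 0.0249). With edgeR's glmTreat, which tests against a log2 fold change of 1, 4 of 6 were called. Col4a5 and Col4a6 were not (adjusted p = 0.0449 and 0.137). The call of Col4a6 was lost in 6 of the 12 fits that left out 1 library.

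The 6 genes lie on the chromosomes as 3 pairs, head to head, with the start sites turned to each other. Col4a4 and Col4a3 on chromosome 1 are 71 bases apart, and Col4a6 and Col4a5 on chromosome X are 1308 bases apart. Col4a1 and Col4a2 on chromosome 8 have a gap of -22 bases, that is, the ends of the annotated genes overlap on opposite strands. Both genes of each pair rose in Diff. hepatocytes, by log2 fold changes of 3.46 and 3.51 for Col4a4 and Col4a3, 2.35 and 2.83 for Col4a1 and Col4a2, and 1.56 and 1.75 for Col4a6 and Col4a5. The pair on chromosome 8 did not keep a fixed ratio: Col4a1 to Col4a2 per kb of exons went from 2.30 ± 0.14 (SD, n = 4) in hepatoblasts to 1.66 ± 0.09 in Diff. and 1.05 ± 0.20 in mature hepatocytes. By the exact two-sided permutation test each pair of groups differed with p = 0.0286, the smallest that 4 against 4 libraries allow, or 0.0390 after Benjamini-Hochberg adjustment over 30 tests of 10 ratios, which were chosen after the values had been seen. In mature hepatocytes Col4a4 and Col4a3 had values of opposite sign, -1.05 and 1.01, neither called (adjusted p = 0.0638 and 0.0900). The start regions of Col4a1 and Col4a2, the pair with the most counts, and of Col4a4, from the pair with the largest fold changes, are shown because each lies between 2 genes that rose together. They are RefSeq windows of 300 bases on GRCm38.p6, from 250 bases before to 50 after the start, 5′ to 3′ on the gene's strand, and capitals mark 3 sets of letters on either strand. These are CCAAT, known as the CCAAT box, then GGGCGG, known as a GC box, and lastly the CTC box CCCTCCCC.
Col4a1, chr8:11312777-11313076, minus strand: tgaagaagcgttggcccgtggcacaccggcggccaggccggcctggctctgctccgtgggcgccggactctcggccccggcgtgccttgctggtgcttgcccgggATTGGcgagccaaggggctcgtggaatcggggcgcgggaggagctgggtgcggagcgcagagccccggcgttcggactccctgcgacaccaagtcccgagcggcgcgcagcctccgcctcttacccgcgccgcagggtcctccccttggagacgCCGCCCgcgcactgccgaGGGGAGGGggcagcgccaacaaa
Col4a2, chr8:11312555-11312854, plus strand: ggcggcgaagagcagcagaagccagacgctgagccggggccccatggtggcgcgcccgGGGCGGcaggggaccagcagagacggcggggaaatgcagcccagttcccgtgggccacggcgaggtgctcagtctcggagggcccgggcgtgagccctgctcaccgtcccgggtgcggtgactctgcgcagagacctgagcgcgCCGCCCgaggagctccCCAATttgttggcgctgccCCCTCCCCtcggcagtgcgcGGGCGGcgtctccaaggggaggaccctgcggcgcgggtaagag
Col4a4, chr1:82586800-82587099, minus strand: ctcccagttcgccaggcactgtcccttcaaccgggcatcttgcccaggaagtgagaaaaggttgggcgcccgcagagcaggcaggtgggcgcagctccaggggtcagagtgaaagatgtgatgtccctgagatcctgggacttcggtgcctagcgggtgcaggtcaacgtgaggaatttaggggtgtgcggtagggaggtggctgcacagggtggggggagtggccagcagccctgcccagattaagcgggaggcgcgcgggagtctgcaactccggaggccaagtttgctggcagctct
The windows of Col4a1 and Col4a2 share 78 bases, so a CTC box and a GC box that lie in this stretch were counted for both. Col4a1 held 1 CCAAT box, 1 GC box and 1 CTC box, and Col4a2 held 1, 3 and 1. The Col4a4 window held none of the 3 sets of letters. The Col4a5 window held 1 of each and that of Col4a6 held 1 GC box. No window of Col4a3 was used here. Of 32851 RefSeq windows of this length, 37.4% hold CCAAT, 35.7% GGGCGG and 10.8% CCCTCCCC on either strand. These matches are letters in a window and were not tested for a factor's binding.

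**Figure D3:**
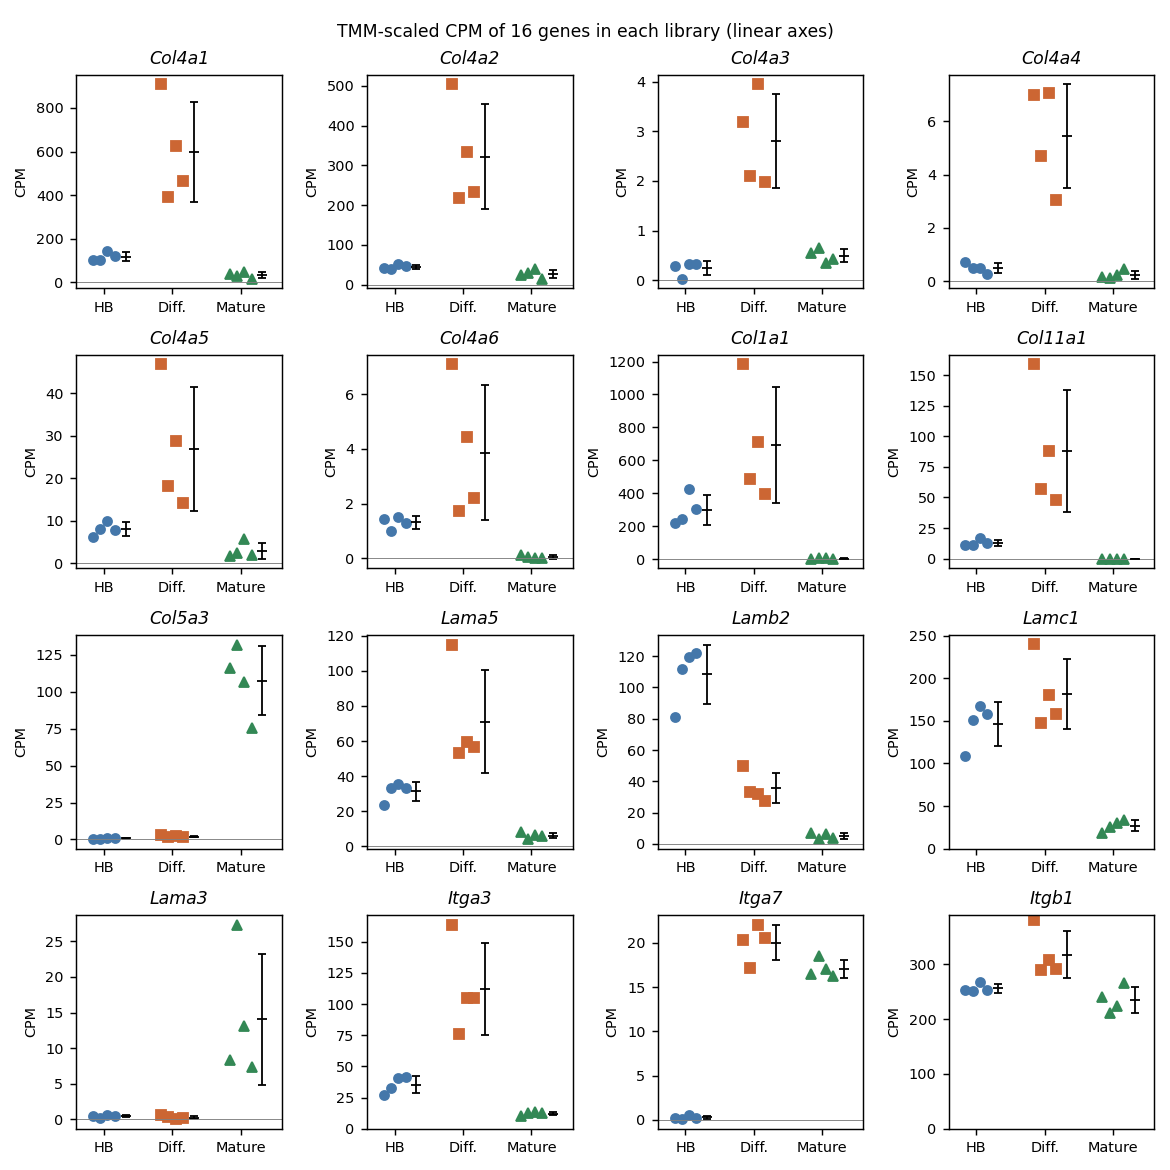
TMM-scaled CPM of 16 genes in each library on linear axes, for hepatoblasts (HB, circles), Diff. hepatocytes (squares) and mature hepatocytes (triangles), with mean and SD beside the points. The type IV chains and Itga3 are highest in Diff. hepatocytes, Col5a3 and Lama3 in mature hepatocytes and Lamb2 in hepatoblasts, while Itga7 is near 0 in hepatoblasts and at like levels in the other groups.

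The fibrillar collagens fell in mature hepatocytes, where 8 of 11 were called lower than in hepatoblasts and 1 higher, with a median log2 fold change of -4.50. In Diff. hepatocytes 5 were called higher and 2 lower, with a median of 0.77. Col1a1 and Col1a2 are the chains of type I collagen. Col1a1 had 221, 246, 425 and 306 CPM in hepatoblasts, 1182, 484, 714 and 396 in Diff. hepatocytes and 2.19, 4.36, 3.50 and 1.92 in mature hepatocytes, so that the mature libraries lay below all others, while hepatoblasts and Diff. hepatocytes overlapped. Its log2 fold change was -6.64 ± 0.43, adjusted p = 1.15e-08, in mature hepatocytes. In Diff. hepatocytes it was 1.21 ± 0.32, adjusted p = 0.00568, and without Diff. hepatocytes replicate 1 it was no longer called (0.83, adjusted p = 0.0186), nor was it without Hepatoblasts replicate 1, 2 or 4, without Diff. hepatocytes replicate 3 or with library totals (0.91, adjusted p = 0.0255). Col1a2 and Col3a1, the chain of type III collagen, fell in mature hepatocytes (-5.51 ± 0.37 and -5.08 ± 0.31, adjusted p = 1.51e-08 and 6.57e-09) and were not called in Diff. hepatocytes (0.65 ± 0.29 and 0.77 ± 0.26). Without Hepatoblasts replicate 3 Col3a1 was called there (1.01, adjusted p = 0.0040).

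Types V and XI nucleate and limit the width of fibers, and their chains did not move alike. Col5a1 fell in mature hepatocytes (-4.50 ± 0.29, adjusted p = 1.07e-08), and so did Col5a2 (-4.60 ± 0.37, adjusted p = 9.74e-08), which had risen in Diff. hepatocytes (1.51 ± 0.29, adjusted p = 6.38e-04). Col11a1 had 11.1, 10.9, 16.6 and 13.0 CPM in hepatoblasts and 159, 57.2, 88.1 and 48.2 in Diff. hepatocytes, where each library was above all hepatoblast libraries (2.77 ± 0.32, adjusted p = 7.27e-06). The 4 mature libraries held 2 counts of Col11a1 in all, which gave a ratio of hepatoblasts to mature hepatocytes of 407 (exact 95% interval for counting error 112 to 3364). Col5a3 went the other way. It had 0.612, 0.418, 0.712 and 1.26 CPM in hepatoblasts, 2.77, 1.59, 2.09 and 1.38 in Diff. hepatocytes and 116, 132, 107 and 75.8 in mature hepatocytes, and the 3 groups did not overlap. The log2 fold change of Col5a3 was 7.17 ± 0.31, adjusted p = 2.38e-10, in mature and 1.39 ± 0.33, adjusted p = 0.00241, in Diff. hepatocytes, and the second was not called with library totals (1.09, adjusted p = 0.0123).

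Col27a1, a fibrillar collagen known from cartilage, had 53.7, 79.6, 88.1 and 91.98 CPM in hepatoblasts, 12.01, 10.7, 9.86 and 11.7 in Diff. hepatocytes and 53.6, 232, 96.1 and 52.4 in mature hepatocytes. All 4 Diff. libraries were below the others, and mature replicate 2 was the highest of the 12 libraries. Col27a1 fell in Diff. hepatocytes (-2.83 ± 0.42, adjusted p = 6.36e-05). In mature hepatocytes it was not called (0.47 ± 0.38, adjusted p = 0.281), and without replicate 2 the value changed its sign to -0.22. Col24a1, at 1.44 ± 0.387 CPM in hepatoblasts, fell in both (-1.85 ± 0.42 and -3.03 ± 0.50, adjusted p = 0.00190 and 9.67e-05). The other 2 fibrillar chains, Col2a1 and Col11a2, had group means of at most 3.46 CPM, and Col11a2 was called higher in Diff. hepatocytes. The fibrillar chains summed to 784 to 1499 CPM in hepatoblasts, 1197 to 3049 in Diff. hepatocytes, highest in replicate 1, and 145 to 392 in mature hepatocytes. The stellate and mesenchymal markers were likewise lowest in mature hepatocytes (by the ranges above), and their part in the fall was not tested.

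Type VI collagen forms beaded filaments next to basement membranes from the chains Col6a1, Col6a2 and Col6a3. In Diff. hepatocytes none of the 3 was called (-0.01 ± 0.19, -0.61 ± 0.22 and 0.48 ± 0.24), and in mature hepatocytes all 3 were called lower (-3.97 ± 0.24, -4.79 ± 0.29 and -4.90 ± 0.32, adjusted p at most 1.21e-08). Col6a1, for example, had 37.8 ± 10.9, 37.6 ± 8.18 and 2.39 ± 0.371 CPM in hepatoblasts, Diff. and mature hepatocytes. Col6a6, another type VI chain, had 3.58, 2.54, 5.18 and 3.94 CPM in hepatoblasts and 0.130, 0.215, 0.178 and 0.197 in Diff. hepatocytes, and fell there (-4.37 ± 0.40, adjusted p = 8.13e-07) and in mature hepatocytes (-2.01 ± 0.34, adjusted p = 1.18e-04). Of its 75-base sequences, 2.97% occur in Col6a5 too.

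The fiber-associated collagens were mixed, with 2 of 6 tested called higher and 2 lower in Diff. hepatocytes, and 0 higher and 4 lower in mature hepatocytes. Col12a1, a collagen that binds to the surface of fibers, had 4.06, 3.88, 6.60 and 5.86 CPM in hepatoblasts and 69.6, 22.6, 37.5 and 26.2 in Diff. hepatocytes, with no overlap (2.93 ± 0.37, adjusted p = 1.58e-05). In mature hepatocytes it had 5.65 ± 2.30 CPM and was not called (0.15 ± 0.37). Col8a1, a short-chain collagen of vessel walls and the cornea, rose from 0.838 ± 0.187 to 9.40 ± 7.33 CPM (3.48 ± 0.50, adjusted p = 5.44e-05) and was lower in mature hepatocytes (-2.68 ± 0.74, adjusted p = 0.00522), a call that was lost in 7 of the 12 fits without 1 library. Its partner Col8a2 was not called in culture (-0.77 ± 0.28) and had 2 counts in the 4 mature libraries, with a ratio of hepatoblasts to mature hepatocytes of 145 (exact 95% interval 39.9 to 1200). Col9a2 and Col9a3, chains of the cartilage collagen IX, fell in Diff. hepatocytes (-2.35 ± 0.31 and -2.004 ± 0.26, adjusted p = 2.37e-05 and 1.77e-05). Col9a3 fell in mature hepatocytes as well (-4.08 ± 0.33, adjusted p = 1.12e-07), and Col9a2 had 3 counts there (ratio of hepatoblasts to mature hepatocytes 182, exact 95% interval 62.2 to 885). Of the 75-base sequences of Col9a3, 4.24% are shared with Tcfl5, which overlaps it on the other strand. Col14a1 and Col16a1, further collagens on the surface of fibers, were not called in Diff. hepatocytes (0.61 ± 0.19 and -0.31 ± 0.28) and fell in mature hepatocytes (-2.21 ± 0.20 and -3.36 ± 0.34, adjusted p = 3.54e-07 and 9.72e-07).

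The transmembrane collagens lie in the cell surface and shed their outer part. Of the 4, 3 fell in Diff. hepatocytes and Col17a1, under 1 CPM in each library, was not called. Col25a1 had 9.28, 12.1, 15.0 and 11.9 CPM in hepatoblasts, 0.130, 0.172, 0.0444 and 0.0493 in Diff. hepatocytes and 1.30, 1.03, 0.583 and 0.621 in mature hepatocytes, 3 ranges without overlap. It fell in Diff. (-6.83 ± 0.37, adjusted p = 7.81e-09) and in mature hepatocytes (-3.78 ± 0.29, adjusted p = 6.39e-08). Col13a1 fell from 2.82 ± 0.676 to 0.216 ± 0.101 CPM in Diff. hepatocytes (-3.69 ± 0.39, adjusted p = 3.39e-06) and was higher in mature hepatocytes (6.00 ± 2.09 CPM, 1.09 ± 0.30, adjusted p = 0.00568), where the groups overlapped and the call was lost with library totals (0.22, adjusted p = 0.511) and without 1 library in 5 of 12 fits. Col23a1 fell in both (-3.61 ± 0.34 and -3.01 ± 0.34, adjusted p = 1.05e-06 and 2.67e-06).

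The multiplexins, basement membrane collagens that carry sugar chains and release endostatin or a like fragment, had higher levels in both later populations, as Col5a3 did. Col18a1 (ENSMUSG00000001435, chromosome 10) took the most counts of the collagen, laminin and integrin genes in each group. It had 597, 712, 921 and 987 CPM in hepatoblasts, 1089, 1302, 1294 and 1319 in Diff. hepatocytes and 1734, 1436, 1736 and 1609 in mature hepatocytes, in ascending groups without overlap. The log2 fold change was 0.64 ± 0.15, adjusted p = 0.00252, in Diff. hepatocytes, under the size needed for a call, and 1.02 ± 0.15, adjusted p = 4.00e-05, in mature hepatocytes. The second rests on the scaling: with library totals it was 0.18 (adjusted p = 0.170), and in 4 of the 12 fits without 1 library (Hepatoblasts replicate 1 or 2, or mature replicate 1 or 3) it was 0.90 to 0.98, under the size needed for a call. Col15a1, known from vessel walls, had 0.773, 0.537, 0.809 and 0.762 CPM in hepatoblasts, 10.02, 4.73, 5.11 and 3.99 in Diff. hepatocytes and 8.43, 21.7, 21.1 and 12.8 in mature hepatocytes, and was called higher in both (3.05 ± 0.37, adjusted p = 1.21e-05, and 4.47 ± 0.38, adjusted p = 1.89e-07). Beside Col15a1, 11 endothelial markers summed to 49.0 to 171 CPM in hepatoblasts, 30.0 to 34.2 in the Diff. hepatocytes and 178 to 311 in the mature ones, and none of the 11 was at 0 throughout a group. Their part was not tested.

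Of the 11 laminin chains, Lama5 and Lamb3 were among those called higher in Diff. hepatocytes and Lamb2 was called lower, while 7 were called lower and 2 higher in mature hepatocytes than in hepatoblasts (median log2 fold changes of 0.31 and -2.36). Per kb of exons, the hepatoblast chains at the top were Lamb2, the beta chain of basement membranes of muscle and kidney, with 17.9 ± 3.11 CPM per kb, and Lamc1, the gamma chain of most laminins, with 17.7 ± 3.13, which did not differ beyond their spread. Next came Lamb1 with 2.92 ± 0.566 and Lama5 with 2.75 ± 0.461, also within their spread, and then Lama1 with 1.42 ± 0.308 CPM per kb. In Diff. hepatocytes Lamc1 was first (21.9 ± 4.98), followed by Lama5 (6.24 ± 2.59) and Lamb2 (5.85 ± 1.59), which did not differ beyond their spread. This order is for merged exons. With the longest transcript the ratio of Lamb2 to Lamb1 was smaller, 3.88 in hepatoblasts and 1.09 in Diff. hepatocytes, so the place of Lamb1 depends on the length used.

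**Figure D4:**
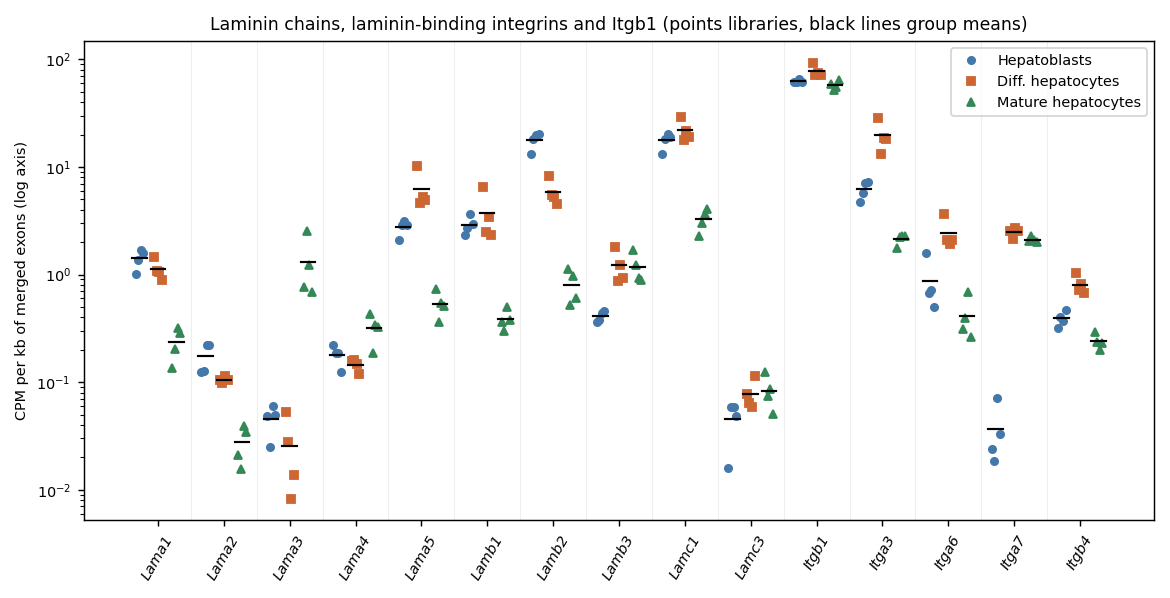
CPM per kb of merged exons (log axis) of 10 laminin chains, Itgb1 and the 4 laminin-binding integrin subunits in each library, with a black line at the group mean. Lama5 and Itga3 are highest in Diff. hepatocytes, Lama3 in mature hepatocytes, and most other laminin chains are lowest in mature hepatocytes.

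Lamb2 had 81.0, 112, 119.7 and 122 CPM in hepatoblasts, 49.6, 33.2, 31.9 and 27.7 in Diff. hepatocytes and 6.78, 3.14, 5.95 and 3.66 in mature hepatocytes, without overlap between groups. It fell in Diff. (-1.61 ± 0.22, adjusted p = 3.85e-05) and in mature hepatocytes (-4.47 ± 0.26, adjusted p = 4.87e-09). Lamb1, the beta chain of early basement membranes, was not called in Diff. hepatocytes (0.34 ± 0.28) and fell in mature hepatocytes (-2.92 ± 0.32, adjusted p = 2.42e-06). The ratio of Lamb2 to Lamb1 per kb within a library, which no scaling touches, went from 6.16 ± 0.77 (SD, n = 4) in hepatoblasts to 1.73 ± 0.43 in Diff. hepatocytes and to between 1.60 and 3.10 in the 4 mature libraries (exact permutation p = 0.0286 for both against hepatoblasts, adjusted 0.0390). With the longest transcript in place of merged exons the ratios were 3.88, 1.09 and 1.32.

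Lama5, the alpha chain of mature epithelial and vessel basement membranes, had 23.7, 33.1, 35.6 and 33.0 CPM in hepatoblasts, 115, 53.2, 59.4 and 56.4 in Diff. hepatocytes and 8.29, 4.17, 6.18 and 5.77 in mature hepatocytes. It rose in Diff. hepatocytes (1.18 ± 0.25, adjusted p = 0.00102), but replicate 1 was far above the others, and without it the value was 0.85 (adjusted p = 0.0012), under the size needed for a call, as it was with library totals (0.88). Lama1, the alpha chain of the first embryonic basement membranes, was not called in Diff. hepatocytes (-0.34 ± 0.23). The ratio of Lama5 to Lama1 rose from 1.96 ± 0.16 in hepatoblasts to 5.46 ± 1.13 in Diff. hepatocytes (exact permutation p = 0.0286, adjusted 0.0390). In mature hepatocytes it lay between 1.70 and 5.41 and was not shown to differ from hepatoblasts or from Diff. hepatocytes (exact permutation p = 0.0857 for the latter). In mature hepatocytes Lama5, Lama1 and Lama2, the muscle form, fell (-2.36 ± 0.27, -2.57 ± 0.26 and -2.63 ± 0.32, adjusted p = 3.60e-06, 9.54e-07 and 5.47e-06).

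Lama3 and Lamb3 are chains of the laminin of stratified and glandular epithelia, and each had its own pattern. Lama3 had 0.516, 0.269, 0.647 and 0.530 CPM in hepatoblasts, 0.562, 0.301, 0.0888 and 0.148 in Diff. hepatocytes and 8.29, 27.3, 13.1 and 7.38 in mature hepatocytes, and rose in mature hepatocytes (4.83 ± 0.51, adjusted p = 1.44e-06) with no call in Diff. hepatocytes (-0.80 ± 0.61). Lamb3 rose in both, from 2.71 ± 0.314 to 8.04 ± 2.88 and 7.84 ± 2.49 CPM (1.57 ± 0.26, adjusted p = 1.89e-04, and 1.53 ± 0.26, adjusted p = 1.59e-04), and in mature hepatocytes the call was lost with library totals (0.68, adjusted p = 0.0306). Lamc1 was not called in Diff. hepatocytes (0.31 ± 0.19) and went from 146 ± 25.9 CPM in hepatoblasts and 182 ± 41.2 in Diff. hepatocytes to 27.0 ± 6.44 in mature hepatocytes (-2.44 ± 0.21, adjusted p = 1.59e-07). Beside these chains, 9 bile duct markers summed to 23.4 to 32.9 CPM in hepatoblasts, 104 to 294 in the Diff. hepatocytes and 29.9 to 53.3 in the mature ones, where Cldn4 of the list was at 0 in every library. The part of bile duct cells was not tested. Lama4, the alpha chain of vessel walls, and Lamc3 had group means of at most 3.88 CPM. Lama4 was lower in Diff. than in mature hepatocytes (-1.13 ± 0.26, adjusted p = 0.00194), a call that was lost with library totals (-0.59) and without mature replicate 1 (-0.96), and Lamc3 was called in no comparison.

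Of 26 tested integrin subunits, 8 (30.8%) were called in Diff. and 9 (34.6%) in mature hepatocytes against hepatoblasts. The first share was near the 28.9% of all genes, and the second was below their 44.8%. Between Diff. and mature hepatocytes 13 (50%) were called, beside 35.8% of all genes. Itgb1, the beta subunit shared by the receptors of collagen, laminin and fibronectin, was called in no comparison. It had 253, 251, 268 and 254 CPM in hepatoblasts, 381, 290.4, 307 and 292 in Diff. hepatocytes and 239.6, 210.5, 224 and 265 in mature hepatocytes. The log2 fold changes were 0.31 ± 0.10 in Diff. and -0.13 ± 0.10 in mature hepatocytes, and with library totals the first value was -0.01. Per kb it was the highest integrin subunit in each group, at 62.9 ± 1.95, 77.9 ± 10.6 and 57.6 ± 5.74 CPM per kb.

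The 4 subunits of laminin-binding integrins (Itga3, Itga6 and Itga7, which pair with Itgb1, and Itgb4, which pairs with Itga6) were called higher in Diff. hepatocytes. Itga7, known as the laminin receptor of muscle, had 0.193, 0.149, 0.583 and 0.265 CPM in hepatoblasts, 20.4, 17.2, 22.0 and 20.6 in Diff. hepatocytes and 16.5, 18.5, 17.0 and 16.3 in mature hepatocytes. Both later groups lay far above hepatoblasts (6.06 ± 0.27, adjusted p = 1.51e-09, and 5.83 ± 0.27, adjusted p = 4.66e-10) and overlapped with each other (0.23 ± 0.19, adjusted p = 0.309). Itga3 had 27.1, 32.8, 40.8 and 41.1 CPM in hepatoblasts, 164, 75.8, 105 and 105 in Diff. hepatocytes and 10.1, 12.8, 13.1 and 13.0 in mature hepatocytes. Its groups did not overlap, and it rose in Diff. (1.66 ± 0.21, adjusted p = 1.30e-05) and fell in mature hepatocytes (-1.53 ± 0.21, adjusted p = 2.20e-05). The ratio of Itga3 to Itgb1 went from 0.099 ± 0.017 in hepatoblasts to 0.25 ± 0.049 in Diff. and 0.038 ± 0.0062 in mature hepatocytes (exact permutation p = 0.0286 for both, adjusted 0.0390). Itga6 and Itgb4 rose from 7.83 ± 4.32 to 22.0 ± 7.47 CPM (1.49 ± 0.36, adjusted p = 0.00301) and from 2.75 ± 0.445 to 5.66 ± 1.14 CPM (1.04 ± 0.20, adjusted p = 4.66e-04). Both calls depend on settings: without Diff. hepatocytes replicate 1, and with library totals, only Itga3 and Itga7 of the 4 were called. The call of Itga6 was also lost without Hepatoblasts replicate 2, 3 or 4 (1.30 to 1.40) and that of Itgb4 without Hepatoblasts replicate 1 (0.97).

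The collagen-binding subunits did not pass the call in Diff. hepatocytes. Itga1, the collagen receptor subunit found on stellate cells, vessels and hepatocytes, had 23.2, 32.7, 35.4 and 39.2 CPM in hepatoblasts, 48.5, 48.5, 57.8 and 51.1 in Diff. hepatocytes and 30.7, 30.0, 35.4 and 32.4 in mature hepatocytes. The Diff. libraries lay above both other groups, by 0.66 ± 0.13, adjusted p = 9.09e-04, over hepatoblasts, under the size needed for a call. Itga2, a collagen receptor of platelets and epithelia, and Itga11, one of fibroblasts, were lower in mature hepatocytes (-2.83 ± 0.29 and -3.65 ± 0.66, adjusted p = 1.20e-06 and 2.37e-04), at 0.479 ± 0.188 and 0.0644 ± 0.0562 CPM. Itga10 shared 29.0% of its 75-base sequences with another annotated gene, so its level is uncertain, and it was not called.

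Among the subunits that bind the RGD sequence of fibronectin and vitronectin, 4 of 8 were called lower in mature hepatocytes than in hepatoblasts and 0 higher. Of all genes, 24.7% were called lower and 20.1% higher there (44.8% in all). Itga5, which makes the fibronectin receptor with Itgb1, had 99.4, 137, 148 and 144 CPM in hepatoblasts, 89.3, 101, 95.04 and 98.3 in Diff. hepatocytes and 31.4, 25.5, 44.2 and 31.8 in mature hepatocytes. It fell in mature hepatocytes (-1.99 ± 0.16, adjusted p = 1.06e-07) and was not called in Diff. hepatocytes (-0.46 ± 0.15, adjusted p = 0.0202), which had been grown on fibronectin. The ratio of Itga5 to Itgb1 was 0.43 ± 0.067 in hepatoblasts, 0.25 ± 0.043 in Diff. and 0.12 ± 0.030 in mature hepatocytes (exact permutation p = 0.0286 for each pair of groups, adjusted 0.0390). Itgav, the alpha subunit of vitronectin receptors, had 57.7 ± 7.92, 107 ± 18.9 and 45.9 ± 7.81 CPM. It was called higher in Diff. than in mature hepatocytes (1.22 ± 0.15, adjusted p = 1.13e-05) and fell short of a call against hepatoblasts (0.89 ± 0.15). Itgb5, its partner, was at 107 ± 24.0, 65.6 ± 2.64 and 79.1 ± 8.86 CPM and was not called in any comparison, but with library totals it was called lower in both later groups. Itgb6, the epithelial partner of Itgav, rose from 0.398 ± 0.0733 to 2.17 ± 1.49 CPM (2.43 ± 0.44, adjusted p = 3.56e-04), and Itga8, the nephronectin receptor, fell in mature hepatocytes (-2.39 ± 0.34, adjusted p = 2.72e-05).

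Itga2b and Itgb3, which form the fibrinogen receptor of platelets, fell in mature hepatocytes (-1.78 ± 0.42, adjusted p = 0.00184, and -3.20 ± 0.49, adjusted p = 5.64e-05) and were not called in Diff. hepatocytes (0.18 ± 0.39 and -0.12 ± 0.42). Itgb3 had 31.4, 15.8, 18.3 and 8.68 CPM in hepatoblasts, 23.2, 25.9, 6.84 and 12.5 in Diff. hepatocytes and 1.78, 1.67, 3.27 and 1.30 in mature hepatocytes, so hepatoblasts and Diff. hepatocytes overlapped. The 7 megakaryocyte and platelet markers summed to 10.1 to 43.9 CPM in hepatoblasts, 19.04 to 52.1 in the Diff. hepatocytes and 1.10 to 1.41 in the mature ones, and their part in both genes was not tested. None of the 7 was at 0 throughout a group.

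Itga4 and Itga9, receptors for VCAM-1, fibronectin and tenascin, and the leukocyte integrins had their highest summed levels in Hepatoblasts replicate 1. Itga4 had 98.2, 23.1, 16.6 and 14.6 CPM in hepatoblasts, 19.2, 15.6, 12.8 and 13.9 in Diff. hepatocytes and 2.74, 1.03, 2.68 and 0.931 in mature hepatocytes. It fell in mature hepatocytes (-4.37 ± 0.65, adjusted p = 4.00e-05), also without that library (-3.30, adjusted p = 6.51e-07). In Diff. hepatocytes it was not called (-1.31 ± 0.53, adjusted p = 0.0472), at -0.23 without that library. Itga9 had 15.3 ± 4.00, 6.62 ± 2.99 and 13.5 ± 4.50 CPM and was called lower in Diff. hepatocytes (-1.20 ± 0.31, adjusted p = 0.00432), with overlap between the groups. This call was lost in 5 of the 12 fits without 1 library (Hepatoblasts replicate 1 or 3, or Diff. hepatocytes replicate 2, 3 or 4), where the values lay between -1.15 and -1.03 with adjusted p from 0.0116 to 0.0153. Of the 8 leukocyte integrin subunits, Itgal, a subunit of the receptor for ICAM-1, had 29.0, 6.86, 6.54 and 6.69 CPM in hepatoblasts and was not called (-1.55 ± 0.58, adjusted p = 0.0346, in Diff. hepatocytes), but with the replicate number as a block it was called lower there (-1.42, adjusted p = 0.00801). Its partner Itgb2 had 12.8, 2.69, 2.59 and 2.22 CPM there, 8.55, 4.04, 1.24 and 2.41 in Diff. hepatocytes and 4.80, 2.24, 6.42 and 4.78 in mature hepatocytes, and was not called either. Itgb7, of gut-homing lymphocytes, was lower in Diff. hepatocytes (-2.59 ± 0.40, adjusted p = 1.05e-04), also without Hepatoblasts replicate 1 (-2.22, adjusted p = 1.55e-04). Itgb2l, a relative of Itgb2, was called higher there (1.70 ± 0.46, adjusted p = 0.00589), a call that was lost with library totals (1.33, adjusted p = 0.0307) and in 6 of the 12 fits without 1 library. The level of Itgam is uncertain, since 65.2% of its 75-base sequences also belong to an overlapping gene model. The macrophage list summed to 79.4 to 327 CPM in hepatoblasts, 27.4 to 189 in the Diff. hepatocytes and 119.8 to 234 in the mature ones, and the part of these cells was not tested. Col4a3bp, the match by name alone, had 59.6 ± 5.49, 54.7 ± 1.69 and 55.8 ± 10.9 CPM and was called in no comparison. The 6 tested genes not yet described (Col7a1, Col20a1, Col26a1, Itgb8, Itgae and Itgax) had group means of at most 1.41 CPM. Of these, Col20a1 was called higher in Diff. hepatocytes, and Col26a1, at 0 in each mature library, was called lower in mature hepatocytes.

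**Figure D5:**
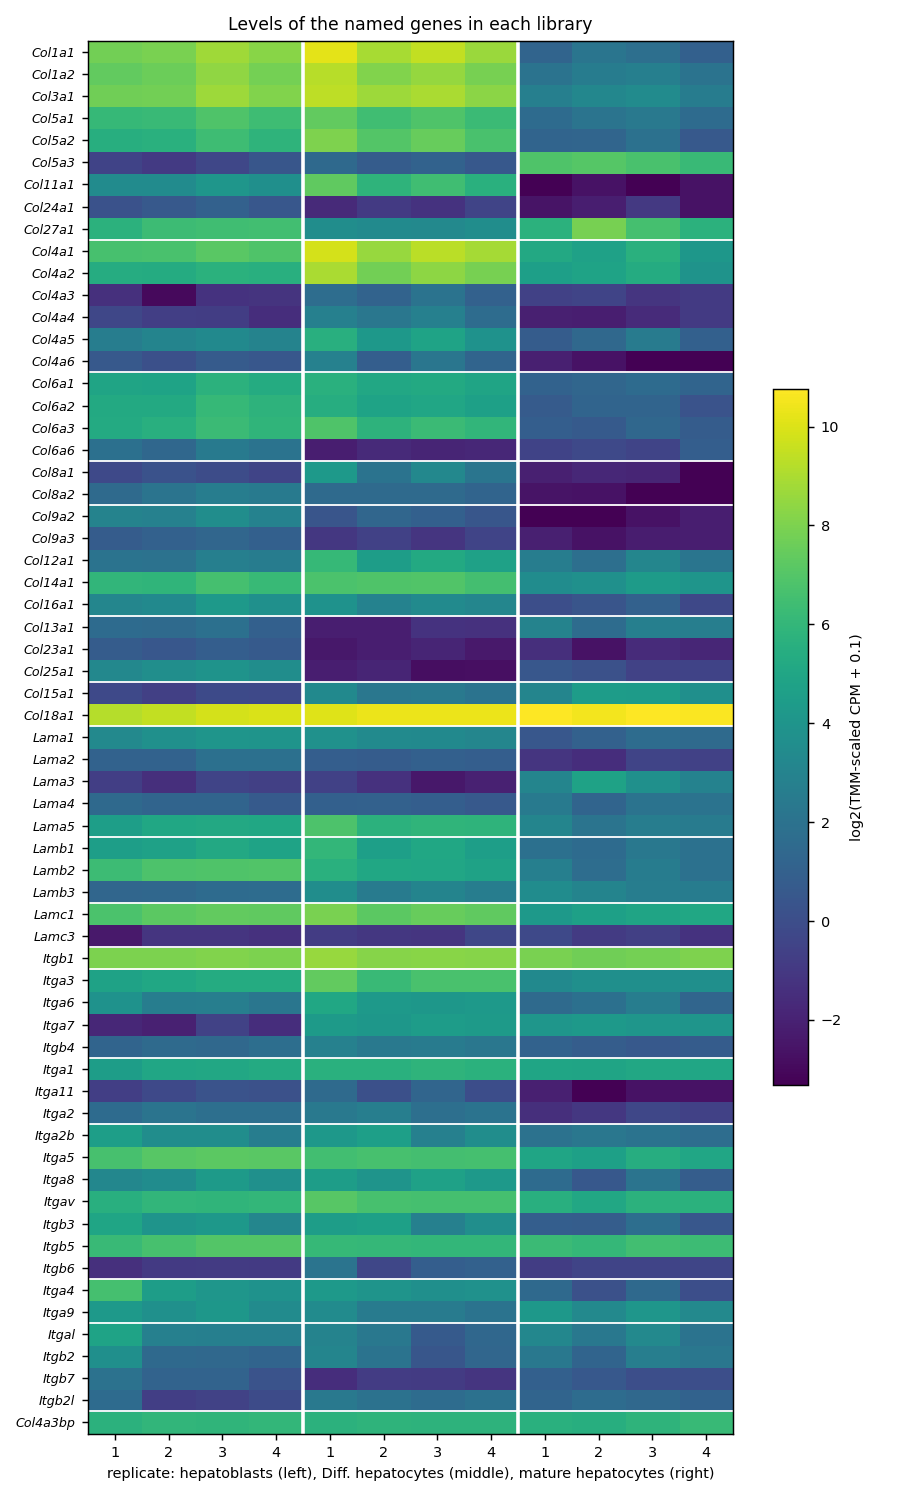
Log2 of TMM-scaled CPM plus 0.1 for 63 genes (rows, grouped by class, white lines between classes) in the 12 libraries (columns, 4 replicates of each group). Dark blue is low and yellow high; Col18a1 is bright in all libraries, the fibrillar collagens darken in mature hepatocytes except Col5a3 and Col27a1, and Itga7 brightens after hepatoblasts.

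Other genes of the same pathway were followed in 6 lists. Beside their counts, 14.9% of all genes tested were called higher and 14.0% lower in Diff. hepatocytes. In mature hepatocytes against hepatoblasts these shares were 20.1% and 24.7%. Of 12 other basement membrane proteins, 5 were called higher and 3 lower in Diff. hepatocytes, and 1 higher and 10 lower in mature hepatocytes than in hepatoblasts (median log2 fold changes of 0.69 and -2.996). Sparc, a calcium-binding chaperone of type IV collagen, rose in Diff. hepatocytes (75.1 ± 13.4 to 379.7 ± 158 CPM, 2.34 ± 0.27, adjusted p = 6.40e-06) and Smoc2, of the same family, rose by 3.58 ± 0.24, adjusted p = 4.81e-08. Nid2, a nidogen that links laminin to type IV collagen, and Agrn, which binds laminin, fell (-1.74 ± 0.33 and -1.15 ± 0.19, adjusted p = 4.97e-04 and 2.01e-04). In mature hepatocytes Nid1, Nid2, Hspg2 (perlecan), Agrn and Sparc fell, with values between -1.54 ± 0.27 and -4.35 ± 0.29, and Ntn4, a laminin-related netrin, rose (1.75 ± 0.29, adjusted p = 9.67e-05), a call that was lost with library totals (0.88, adjusted p = 0.0141).

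Of 14 other matrix ligands of integrins, 7 were called higher and 1 lower in Diff. hepatocytes, and 5 higher and 6 lower in mature hepatocytes (median log2 fold changes of 1.12 and -0.56). Fn1 (fibronectin) went from 2949 ± 591 to 6359 ± 470.2 CPM in Diff. hepatocytes (1.11 ± 0.15, adjusted p = 2.66e-05), a call lost with library totals (0.80) and without Hepatoblasts replicate 1 (0.99), and was at 2641 ± 211 CPM in mature hepatocytes. Tnc (tenascin C) rose in Diff. hepatocytes (2.33 ± 0.15, adjusted p = 3.99e-08) and fell in mature hepatocytes (-5.34 ± 0.24, adjusted p = 3.24e-10), and Ccn2, a matricellular target of YAP, rose in Diff. hepatocytes (5.12 ± 0.43, adjusted p = 3.35e-07). Of the plasma ligands made by hepatocytes, Vtn (vitronectin) was higher in mature hepatocytes (1.46 ± 0.15, adjusted p = 1.20e-06), and the fibrinogen chains Fga, Fgb and Fgg were higher in both later groups (2.08 to 2.59 in Diff. and 1.54 to 1.65 in mature hepatocytes). These 4 calls in mature hepatocytes were lost with library totals, with which the list had 7 calls there in place of 11.

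Of 29 genes of collagen folding and processing, 7 were called higher and 4 lower in Diff. hepatocytes, and 2 higher and 20 lower in mature hepatocytes (median log2 fold changes of -0.0084 and -2.54). Lox, which cross-links collagen fibers, had 6.05 ± 1.39 CPM in hepatoblasts, 91.1 ± 40.0 in the Diff. hepatocytes and 0.0791 ± 0.0955 in the mature ones (3.91 ± 0.31, adjusted p = 1.91e-07, and -6.17 ± 0.61, adjusted p = 7.82e-07). Plod2, a lysyl hydroxylase, moved the same way (1.35 ± 0.20 and -5.61 ± 0.33, adjusted p = 7.39e-05 and 4.53e-09). P4hb and Ppib, folding enzymes that also serve other proteins, were not called, and Mia3, which exports large cargo including procollagen, was higher in mature hepatocytes (1.96 ± 0.13, adjusted p = 1.11e-08). Of 18 tested matrix proteases and inhibitors, 8 were called higher and 1 lower in Diff. hepatocytes, and 1 higher and 9 lower in mature hepatocytes (median log2 fold changes of 1.06 and -2.39). Mmp15, a membrane-bound protease, rose in mature hepatocytes (3.49 ± 0.16, adjusted p = 4.76e-10), while Mmp2 and Mmp14 fell there (-5.36 ± 0.39 and -1.72 ± 0.18, adjusted p = 3.26e-08 and 1.22e-06). Mmp19 fell in Diff. hepatocytes (-2.42 ± 0.14, adjusted p = 1.51e-08).

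Of 24 tested genes of the integrin adhesion complex inside the cell, 5 were called higher and 1 lower in Diff. hepatocytes. In mature hepatocytes 6 were called higher and 7 lower (median log2 fold changes of 0.15 and -0.26). These are 6 and 13 called genes, beside 28.9% and 44.8% of all genes. The first count was not above the share of all genes. Lims2, the PINCH adaptor of ILK, had 0.444 ± 0.164, 25.9 ± 1.48 and 72.4 ± 6.67 CPM in hepatoblasts, Diff. and mature hepatocytes (5.85 ± 0.18, adjusted p = 5.61e-11, and 7.33 ± 0.18, adjusted p = 2.46e-12). Fermt2 (kindlin 2, an integrin activator) and Tns1 (tensin 1) rose in Diff. hepatocytes (1.54 ± 0.18 and 1.44 ± 0.15, adjusted p = 6.72e-06 and 2.11e-06), and Tln2, a talin, fell (-2.21 ± 0.15, adjusted p = 6.65e-08). Tln1 and Actn4 were not called, and Src fell in mature hepatocytes (-3.50 ± 0.25, adjusted p = 2.57e-08). Of 13 other matrix receptors, 5 were called higher and 0 lower in Diff. hepatocytes, and 4 higher and 5 lower in mature hepatocytes (median log2 fold changes of 0.48 and 0.12). The syndecans Sdc2 and Sdc4 rose in Diff. (1.40 ± 0.14 and 1.53 ± 0.13, adjusted p = 1.90e-06 and 3.57e-07) and in mature hepatocytes (2.46 ± 0.14 and 1.66 ± 0.13, adjusted p = 4.76e-09 and 7.15e-08). With library totals the mature value of Sdc4 was 0.81, under the size needed for a call. Ddr1, a collagen-activated kinase of epithelia, rose in Diff. (2.35 ± 0.22, adjusted p = 1.24e-06) and fell in mature hepatocytes (-2.18 ± 0.26, adjusted p = 5.19e-06), and Dag1, the laminin receptor dystroglycan, was not called (0.24 ± 0.14 and -0.09 ± 0.14).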

How the data were processed

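Poly(A) RNA of 12 samples (3 groups of 4, from GEO's labels) was sequenced as single reads. The authors aligned the reads with STAR 2.5.2b to GRCm38 with Ensembl 92 annotation, per the labels and the study's methods, which also name FastQC 0.11.2, Picard 2.10.2 and DESeq2 1.22.2, and deposited raw counts per gene. Whether counting used strand is not given in the sources used here, so genes that overlap another on the opposite strand are uncertain. Among these were Itga4, with 6.94% of its 75-base sequences shared with Cerkl, and Itgav, with 5.14% shared with Gm13684. Itgb5 shared 6.48% with Gm38317. No count column was left unused. Of the 53715 gene IDs, 53620 were matched to GENCODE M21 symbols, and 21338 were at 0 in every library.

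From these counts, the 17779 genes that exceeded 10 counts in at least 1 library were fitted together over the 12 libraries with edgeR 4.0.16 (R 4.3.3; quasi-likelihood test, TMM scaling, group as the only term), with Benjamini-Hochberg adjustment over all of them. A call needed an adjusted p under 0.01 and a log2 fold change over 1 in size. The SE of a fold change is its size over the square root of F. CPM are TMM-scaled, and levels between genes were compared per kb of merged exons. Totals of 19581551 to 25216977 counts give the precision. Intervals on sums of under 4 counts are exact and cover counting error only. Promoter windows are from RefSeq (GRCm38.p6), found for 59 of the 83 genes. The fit was also run on simulated counts, in which few genes changed and the groups otherwise shared their means. That run could not test how the scaling between groups bears on the calls. The replicates are given as biological, and the p-values set the differences between groups against the spread between replicates.

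Genes were named where they reached 10 CPM in a group, were among the 10 with the largest called change per direction and comparison (at least 1 CPM), assembled with such a chain or matched by name alone. In the other lists of the pathway these were the 4 most abundant and the 2 with the largest called change per direction and comparison. Itga2, Itga10, Itga11, Itgb2, Itgb2l, Itgb4, Itgam, Col2a1, Col11a2, Col17a1 and the 6 genes described last were named after their values were seen. A few genes counted in the lists are not reported here by name. The genes and lists were chosen with earlier results of these data known. Alternatives were DESeq2 1.42.0 (Wald test and size factors), library totals, looser and stricter count filters, glmTreat, another threshold, fits of 2 groups, a replicate block and leaving out each library.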

Additional observations from a re-analysis of the deposited data

Results flagged for a closer look

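Groups of 4 libraries (genes described above, their classes and the marker lists) were checked with Dixon's criterion for 4 values. In 25 of 276 groups, 1 library stood further from the others than the criterion allows. Chance alone would give about 13.8 (1 in 20) for independent groups of normally distributed values. The groups are not independent, since class sums repeat the values of their genes and Itgb1 was counted as a gene and as a class. Hepatoblasts replicate 1 was the library set apart in 10 of the 25 groups and Diff. hepatocytes replicate 1 in 6. All values here are TMM-scaled CPM, with the range of the other 3 libraries of the group after each.

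Hepatoblasts replicate 1 had 98.2 CPM of Itga4 (others 14.6 to 23.1), 29.0 of Itgal (6.54 to 6.86), 12.8 of Itgb2 (2.22 to 2.69) and 2.90 of Itgb2l (0.507 to 0.828). Its summed levels were 118 for the alpha 4 and alpha 9 integrins (25.5 to 36.3) and 51.4 for the leukocyte integrins (11.9 to 13.0). The marker lists of blood cells were high in the same library: 327 for macrophages and myeloid cells (79.4 to 90.9), 466 for granulocytes (32.6 to 52.5), 2079 for erythroid cells (247 to 419) and 2.74 for lymphoid and NK cells (0.477 to 0.841). Their part in the integrin values was not tested.

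Diff. hepatocytes replicate 1 had 115 CPM of Lama5 (others 53.2 to 59.4), 33.2 of Itga6 (17.2 to 19.1) and 135 of Itgav (96.5 to 99.5), and a sum of 133 for the laminin alpha chains (67.4 to 73.4). It was below the others for Col18a1, at 1089 (1294 to 1319), and for the multiplexins, at 1099 (1299 to 1323).

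The other values concern single libraries. Col4a3 was at 0.0298 in Hepatoblasts replicate 2 (others 0.290 to 0.331), and Col9a2 at 11.9 in Hepatoblasts replicate 3 (7.16 to 7.86), which also had 268 of Itgb1, the shared beta subunit (251 to 254). Col8a2 was at 2.22 in Diff. hepatocytes replicate 4 (2.84 to 2.85), and the collagen-binding integrins summed to 64.9 in Diff. hepatocytes replicate 3 (57.1 to 58.1). In mature hepatocytes Col6a6 was at 1.74 in replicate 4 (0.617 to 0.770), Itga3 at 10.1 in replicate 1 (12.8 to 13.1) and the sum of fiber-associated collagens at 33.5 in replicate 3 (19.9 to 22.2).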

How the results depend on the processing

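Counts of called collagen, laminin and integrin genes are given in the order Diff. hepatocytes and then mature hepatocytes against hepatoblasts, and last Diff. against mature hepatocytes (35, 47 and 52 in the report). Shares of all genes called are given for the main fit only, so counts with other settings have no such share beside them. The counts were 35, 50 and 57 with the DESeq2 Wald test, 32, 47 and 52 with fits of 2 groups, and 35, 47 and 55 without a filter beyond 1 count. DESeq2's size factors changed none of the 306 fold changes' calls. With library totals 15 were higher in the first comparison and 4 in the second, and of the other matrix ligands 7 were called in the second. With at least 10 counts in every library, which leaves fewer genes to test, the counts were 17 (14 higher, 3 lower), 26 (3 and 23) and 32 (28 and 4). With that filter 5 basement membrane, 4 folding and 4 protease genes were called in the first comparison, 11 folding and 3 protease genes in the second, and 11 folding genes, 6 protease genes and 4 other receptors in the third. With glmTreat, 20 genes (12 higher), 5 basement membrane proteins and 5 matrix ligands were called in the first, 4 were higher in the second, and 4 adhesion complex genes were called in the third. At an adjusted p under 0.05 with no fold threshold, 18 were lower in the first, with 16 adhesion complex genes and 9 other receptors, and 18 adhesion complex genes were called in the third.

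Without 1 library in turn, the counts ranged over 29 to 35 (18 to 24 higher, 10 to 11 lower), 42 to 47 (5 to 8 and 37 to 40) and 51 to 56 (43 to 45 and 7 to 11). Other receptors in the first comparison ranged over 5 to 8 and the adhesion complex in the third over 5 to 9. Values that changed sign were not called in the report. With library totals they were Itgb1 (-0.012) and Itga2b (-0.17) in the first, Col27a1 (-0.32), Col12a1 (-0.68), Lama4 (-0.035) and Itgb6 (-0.22) in the second, and Col18a1 (0.15), Lamc3 (0.43), Itgb5 (0.26), Itgb2 (0.39) and Col4a3bp (0.51) in the third. With 10 counts in every library Col4a3bp was 0.083 in the third. Without 1 library the ranges were -0.40 to 0.27 for Itgb3, -0.97 to 0.72 for Itgb2, -0.16 to 0.18 for Col6a1, -0.14 to 0.63 for Itga2b and -0.084 to 0.51 for Lamb1 in the first. They were -1.05 to 0.044 for Itgal, -0.42 to 0.86 for Itgb2, -0.16 to 0.068 for Itga1, -0.22 to 0.69 for Col27a1 and -0.14 to 0.32 for Col12a1 in the second. In the third they were -0.22 to 0.26 for Lamb3, -0.32 to 0.14 for Lamc3, -0.83 to 0.14 for Itgb2 and -0.12 to 0.10 for Col4a3bp. The cause was not tested.

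The replicate numbers are not said to pair the samples. Between hepatoblasts and Diff. hepatocytes, the deviations of same-numbered libraries correlated with r of 0.32, -0.06, 0.25 and 0.18. Libraries of different number in these groups had r between -0.35 and 0.24. The values do not settle whether these groups were paired. Same-numbered libraries of mature hepatocytes and either other group had r between -0.08 and 0.09. With the number as a replicate block, 36, 47 and 54 genes were called. Itgal in the first comparison (-1.42, adjusted p = 0.00801) and Itga9 in the third (-1.06, adjusted p = 1.08e-04) were called with the block and not without it. Col6a1 was at 0.015 in the first comparison and Itgb2 at 0.29 in the second, both of changed sign and not called. Depth limits genes with few counts in mature hepatocytes, such as Col11a1 with 2, to wide intervals.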
